A study of Mus musculus with 12 samples.

Results

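Transcripts encoded by the mitochondrial chromosome were compared between 6 Arf6-null and 6 wild-type melanoma tumors of the mouse by bulk RNA sequencing. The Arf6-null tumors have the genotype BrafCA;Cdkn2af/f;Arf6f/f and the wild-type tumors BrafCA;Cdkn2af/f, so the BrafCA allele and floxed Cdkn2a are shared by all 12 tumors. The labels give neither the Cre that recombined the floxed alleles, nor the age or sex of the animals, nor whether each tumor came from a separate animal, so p-values measure only the spread between these samples. The transcripts described are 7 named mitochondrial genes, mt-Nd1, mt-Nd2, mt-Nd4, mt-Nd5, mt-Nd6, mt-Cytb and mt-Co1, of 37 genes that the annotation places on the mitochondrial chromosome and 55487 genes in the table of counts. They were chosen by their measured difference between the genotypes, with light-strand mt-Nd6 set against the heavy-strand transcripts. The values of that contrast are therefore given as a description, with no p-value, and whether a member passed the threshold of the fit across all genes is stated only beside the share of all genes that did.

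Mitochondrial DNA is transcribed from each strand into long RNAs that are cut into rRNAs, tRNAs and mRNAs. Most mitochondrial mRNAs lie on the RNA copied from the heavy-strand promoters, and mt-Nd6 is the only mRNA cut from the RNA of the opposite strand, made from the light-strand promoter. The mt-Nd genes encode core subunits of complex I of the respiratory chain, mt-Cytb the cytochrome b of complex III, and mt-Co1 the catalytic subunit of complex IV. In human mitochondria the heavy-strand mRNAs carry a tail of A residues, whereas a tail on the ND6 mRNA is absent or short. The library kit named in the labels enriches polyadenylated RNA, and the share of each transcript that it captured was not measured.

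All 7 genes are single transcripts without introns on the mitochondrial chromosome (MT) of GRCm38. On the plus strand of the annotation, mt-Nd1 occupies positions 2751 to 3707, mt-Nd2 3914 to 4951, mt-Co1 5328 to 6872, mt-Nd4 10167 to 11544, mt-Nd5 11742 to 13565 and mt-Cytb 14145 to 15288. On the minus strand, mt-Nd6 occupies 13552 to 14070, between mt-Nd5 and mt-Cytb. The last 30 bases of each GENCODE M21 transcript are printed to show how the annotated transcripts end. The stop codon, or the part of it within the annotated transcript, is in capitals. Where the RNAs themselves end was not measured.
mt-Nd6: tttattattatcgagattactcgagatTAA
mt-Nd5: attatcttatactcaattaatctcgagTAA
mt-Nd1: tttacagcgggagtaccaccatacataTAG
mt-Nd2: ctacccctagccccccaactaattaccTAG
mt-Nd4: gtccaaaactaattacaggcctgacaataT
mt-Cytb: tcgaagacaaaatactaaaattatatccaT
mt-Co1: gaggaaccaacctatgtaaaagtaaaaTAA
The annotated mt-Nd4 and mt-Cytb transcripts end on a single T of the stop codon, whose remaining A residues are known to be added with the tail. The other 5 annotated transcripts, mt-Nd6 among them, end on a whole stop codon. For mt-Nd1 and mt-Nd2, the bases after the T of that codon also lie in the next annotated tRNA gene. These are mt-Ti, from 3706, and mt-Tw, from 4950, both on the plus strand. The annotated ends of mt-Nd6 and mt-Nd5 overlap on opposite strands over 14 bases, 13552 to 13565, read as ttactcgagattaa on the minus strand and ttaatctcgagtaa on the plus strand. The overlap of the RNAs themselves was not measured.

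The base composition of mt-Nd6 runs against that of the heavy-strand transcripts. G made up 28.1% of mt-Nd6 and 8.0% (mt-Nd2) to 16.1% (mt-Co1) of the 6 others. C made up 5.97% of mt-Nd6 and 23.8% to 27.7% of the others. The first 90 bases of mt-Nd6 and of its neighbors on either side are printed to show the contrast, with G in capitals.
mt-Nd6: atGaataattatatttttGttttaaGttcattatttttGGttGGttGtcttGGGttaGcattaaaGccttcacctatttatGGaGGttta
mt-Nd5: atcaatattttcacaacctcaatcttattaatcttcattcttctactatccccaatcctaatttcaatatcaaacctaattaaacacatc
mt-Cytb: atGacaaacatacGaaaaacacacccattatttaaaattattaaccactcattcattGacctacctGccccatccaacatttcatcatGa
These stretches run from position 14070 down to 13981 for mt-Nd6, from 11742 to 11831 for mt-Nd5 and from 14145 to 14234 for mt-Cytb. They hold 17 G in mt-Nd6, 0 in mt-Nd5 and 5 in mt-Cytb.

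Library totals were 21007954 to 45688253 counts in Arf6-null tumors and 22211738 to 30326419 in wild-type tumors. Arf6, a small GTPase of membrane traffic, was at 18.3 ± 3.73 CPM (reads per gene after libraries are brought to the same total) in Arf6-null tumors and 110.9 ± 24.9 CPM in wild-type tumors (SD, n = 6 each), which is -2.60 ± 0.18 (SE) as a log2 fold change (quasi-likelihood test of edgeR, adjusted p = 0.000101). Of 16225 genes tested, 95 (0.586%) passed an adjusted p of 0.05 as higher in Arf6-null tumors and 91 (0.561%) as lower. The median log2 fold change of all tested genes was -0.03, and 47.2% were above 0. Among 9 melanocyte markers, 4 pigment genes were at or near 0 in every tumor, with no count for Mlana, at most 2 for Tyr and at most 1 each for Tyrp1 and Dct. Pmel had 10 to 50 counts and Sox10 0 to 33, and Gpnmb, which macrophages also express, 6.46 to 116.2 CPM. Kit, a receptor also found on mast cells, was at 5.28 ± 2.64 CPM in Arf6-null tumors and 15.4 ± 5.27 CPM in wild-type tumors, with Arf6-null tumors below without overlap (edgeR adjusted p = 0.0629). Mitf, the melanocyte transcription factor, was present at 18.2 ± 8.78 CPM in Arf6-null tumors and 18.6 ± 6.74 CPM in wild-type tumors. The genotypes carry separate runs of library numbers in the sample titles, so anything that followed the library numbering cannot be told apart from genotype.

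The 7 transcripts took 1.80 ± 0.233% of the counts in Arf6-null libraries and 1.65 ± 0.205% in wild-type libraries (SD, n = 6 each), with overlapping ranges. Per unit of length, the order of the transcripts depended on how shared sequence was counted. CPM were divided by the length, in kilobases, over which windows of 100 bases of the transcript occur in no other annotated transcript, and averaged over the 12 tumors. On this scale mt-Co1 was at 6550, mt-Cytb at 3959, mt-Nd1 at 2758, mt-Nd4 at 2158, mt-Nd2 at 1489, mt-Nd5 at 1041 and mt-Nd6 at 32.3. Each step of that order held within 12 of 12 tumors, except that mt-Nd1 was above mt-Cytb in wild-type replicate 5. The ranges over the tumors overlapped between neighbors at every step but the last, where mt-Nd5 was 32.2-fold above mt-Nd6. Per kilobase of the whole gene, mt-Nd4 was instead at 786.2, below mt-Nd2 at 1304 and mt-Nd5 at 984.4, and this held in 12 of 12 tumors. On that scale, the level of mt-Nd6 was 3.48% of that of mt-Nd5 in Arf6-null tumors and 1.82% in wild-type tumors.

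The light-strand transcript was the one with the largest genotype difference of the 7. mt-Nd6 was at 22.2, 16.3, 18.4, 19.9, 15.01 and 16.7 CPM in Arf6-null replicates 1 to 6 and at 10.2, 10.4, 8.65, 7.13, 7.84 and 9.99 CPM in wild-type replicates 1 to 6. Every Arf6-null tumor was above every wild-type tumor, with 15.01 CPM in the lowest Arf6-null tumor and 10.4 CPM in the highest wild-type tumor. The means were 18.1 ± 2.64 CPM in Arf6-null tumors and 9.04 ± 1.37 CPM in wild-type tumors (SD, n = 6 each), a log2 fold change of 1.0 ± 0.14 (SE). These levels rest on 442 to 675 reads per Arf6-null library and 203 to 314 per wild-type library, for which counting error alone is 3.85% to 7.02% of the value. mt-Nd6 was the 1 member of 7 past the threshold in the fit across all genes, where 0.586% of the tested genes were called higher and 1.15% in either direction. Ranges lay apart with Arf6-null tumors above for 1.15% of the tested genes. Nothing is read from these shares, since mt-Nd6 was chosen for the contrast.

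**Figure D1:**
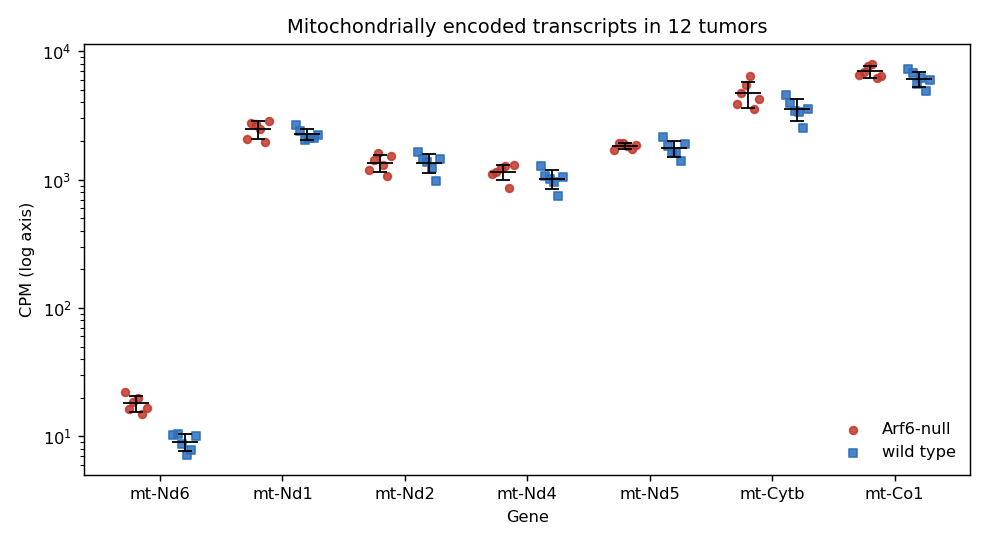
CPM (log axis) of the 7 transcripts in each tumor, Arf6-null (circles) left of wild type (squares), with bars for the mean ± SD of 6 tumors. The 6 Arf6-null values of mt-Nd6, 15.01 to 22.2 CPM, lie above the 6 wild-type values, 7.13 to 10.4 CPM, and the ranges of the other 6 transcripts overlap.

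The 4 other complex I transcripts, all of the heavy strand, had smaller log2 fold changes and overlapping groups. mt-Nd1 ranged from 1949 to 2854 CPM in Arf6-null tumors (median 2595) and from 2052 to 2676 CPM in wild-type tumors (median 2172), with a log2 fold change of 0.12 ± 0.12 (SE). mt-Nd2 ranged from 1061 to 1614 CPM in Arf6-null tumors (median 1354) and from 973.9 to 1657 CPM in wild-type tumors (median 1414), with a log2 fold change of 0.00 ± 0.15. Wild-type replicate 5 was the lowest of the 12 tumors for mt-Nd2, mt-Nd4 and mt-Nd5. mt-Nd4 ranged from 859.8 to 1296 CPM in Arf6-null tumors (median 1186) and from 752.3 to 1267 CPM in wild-type tumors (median 1029), with a log2 fold change of 0.18 ± 0.14. mt-Nd5, whose annotated end overlaps that of mt-Nd6, had a log2 fold change of 0.07 ± 0.11. It ranged from 1707 to 1939 CPM in Arf6-null tumors (median 1850) and from 1403 to 2141 CPM in wild-type tumors (median 1731). Its coefficient of variation was 5.30% among Arf6-null tumors and 14.5% among wild-type tumors.

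The heavy-strand transcripts of the other complexes were the most abundant. mt-Cytb ranged from 3529 to 6477 CPM in Arf6-null tumors (median 4496) and from 2518 to 4530 CPM in wild-type tumors (median 3486). Its log2 fold change of 0.41 ± 0.18 (SE) was the largest of the 6 named heavy-strand transcripts, and the groups overlapped. mt-Co1 ranged from 6210 to 8029 CPM in Arf6-null tumors (median 6717) and from 4940 to 7262 CPM in wild-type tumors (median 6095), with a log2 fold change of 0.19 ± 0.12. None of the 6 heavy-strand transcripts passed the threshold, 5 of the 6 log2 fold changes were above 0, and their median was 0.15. In bulk RNA, fewer cells of a type and less RNA per cell cannot be told apart.

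As a share of the summed counts of the 6 heavy-strand transcripts, a ratio within each library that does not use the scaling between libraries, mt-Nd6 was also apart by genotype. It made 0.134%, 0.0868%, 0.0892%, 0.0932%, 0.0978% and 0.0912% in Arf6-null replicates 1 to 6, and 0.0523%, 0.0594%, 0.0573%, 0.0460%, 0.0617% and 0.0619% in wild-type replicates 1 to 6. The groups did not overlap, and Arf6-null replicate 1 was well above the other 5 Arf6-null tumors. The mean difference of the log2 ratio was 0.80, with an SD of 0.23 among Arf6-null tumors and 0.17 among wild-type tumors. The ratio of the mean percentages was 1.75.

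Against single transcripts the size of the difference depended on the denominator. Relative to mt-Nd5, mt-Nd6 was at 0.990 ± 0.177% in Arf6-null tumors and 0.516 ± 0.0508% in wild-type tumors (SD, n = 6 each). Relative to mt-Cytb it was at 0.397 ± 0.0959% in Arf6-null tumors and 0.258 ± 0.0359% in wild-type tumors. mt-Cytb was the 1 denominator of 6 with overlapping groups, since the lowest Arf6-null value was 0.307% and the highest wild-type value 0.311%. Relative to mt-Co1, the most abundant transcript, mt-Nd6 was at 0.260 ± 0.0385% in Arf6-null tumors and 0.148 ± 0.0184% in wild-type tumors.

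**Figure D2:**
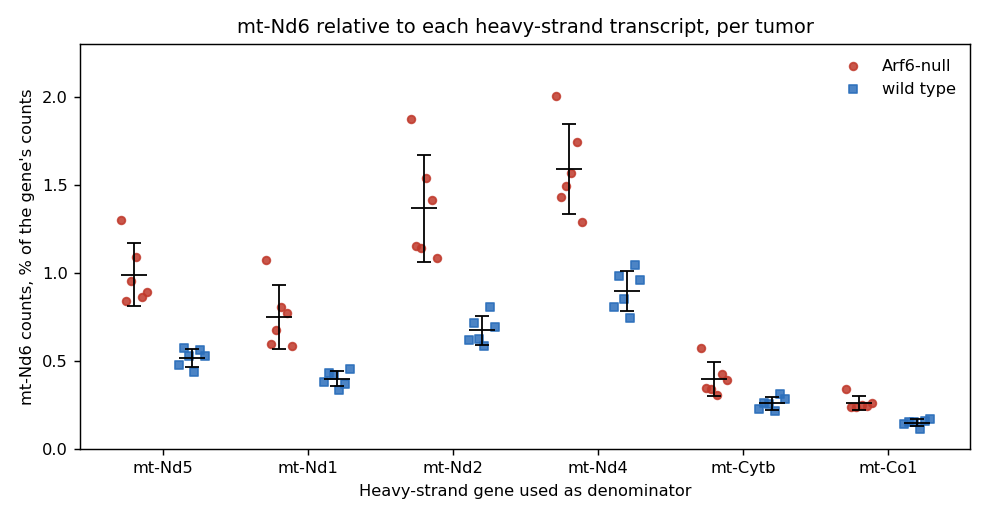
Counts of mt-Nd6 as a percentage of the counts of each heavy-strand transcript in each tumor, Arf6-null (circles) left of wild type (squares), with bars for the mean ± SD of 6 tumors. The groups lie apart for each denominator except mt-Cytb, and Arf6-null replicate 1 is the highest tumor in each.

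Among the heavy-strand transcripts, proportions were close between the genotypes for mt-Co1 and less so for mt-Cytb and mt-Nd2, with overlapping ranges for each. mt-Co1 made 37.8 ± 1.96% of the summed heavy-strand counts in Arf6-null tumors and 38.2 ± 1.25% in wild-type tumors (SD, n = 6 each). mt-Cytb made 25.3 ± 2.79% in Arf6-null tumors and 21.99 ± 1.20% in wild-type tumors, and its range in Arf6-null tumors reached 30.3% in replicate 4. mt-Nd2 made 7.32 ± 0.812% in Arf6-null tumors and 8.41 ± 0.585% in wild-type tumors. With each genotype centred on its own mean, log2 CPM of the 15 pairs of heavy-strand transcripts had Pearson r between 0.57 and 0.94 over the 12 tumors (median 0.76). The 6 pairs of mt-Nd6 with a heavy-strand transcript had r between 0.19, with mt-Nd1, and 0.57, with mt-Nd4 (median 0.48). These values share the libraries and their scaling, and mt-Nd6 has the larger counting error.

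Of 11233 nuclear protein-coding genes at 5 CPM or more, those whose genotype-centred log2 CPM was most like that of mt-Nd6 over the 12 tumors were Parp16 (r = 0.89), Mthfs (0.87), Ust (0.86), Fam45a (0.86) and Adamtsl5 (0.85). Those most like the summed heavy-strand transcripts were Htra1 (0.93), Adarb1 (0.92), Aida (0.92), Atp23 (0.91) and Pald1 (0.91). The lists share no gene. With 12 points and this many genes ranked, such values are a description of these tumors only.

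The rest of the mitochondrial chromosome holds 2 rRNA genes, 22 tRNA genes and 6 further mRNA genes. The small-subunit rRNA mt-Rnr1 was at 172.3 ± 52.6 CPM in Arf6-null tumors and 226.2 ± 23.97 CPM in wild-type tumors (SD, n = 6 each), with a log2 fold change of -0.39 ± 0.18 (SE). The large-subunit rRNA mt-Rnr2 was at 159.3 ± 35.1 CPM in Arf6-null tumors and 200.2 ± 40.0 CPM in wild-type tumors, with a log2 fold change of -0.33 ± 0.17. Neither passed the threshold and the groups overlapped for each. The 2 rRNAs together were 1.82 ± 0.520% of the summed heavy-strand mRNA counts in Arf6-null tumors and 2.66 ± 0.179% in wild-type tumors, with Arf6-null replicate 6 inside the wild-type range. The 8 light-strand tRNA genes held 8 counts in all Arf6-null libraries together and 3 in all wild-type libraries, and 4 of them had no read. mt-Nd6 is therefore the only light-strand gene with enough counts to compare. Of the 14 heavy-strand tRNA genes, which held 623 counts in Arf6-null and 367 in wild-type libraries, 2 were tested and neither passed: mt-Tl1, with a log2 fold change of 0.59 ± 0.27, and mt-Tm, with 0.12 ± 0.39.

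**Figure D3:**
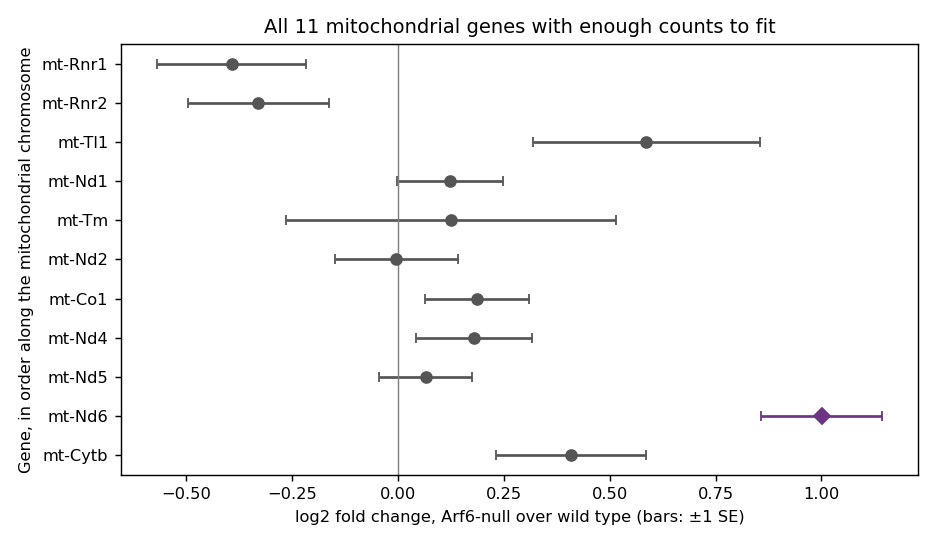
Log2 fold change, Arf6-null over wild type, of the 11 mitochondrial genes with enough counts to fit, in their order along the chromosome, with bars of ±1 SE. mt-Nd6 is at 1.0, the 6 other named mRNAs lie between 0.00 and 0.41, and the 2 rRNAs lie below 0. The heavy-strand tRNAs mt-Tl1 and mt-Tm are at 0.59 and 0.12.

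The remaining 6 mRNA genes were almost without counts. mt-Co2, mt-Co3, mt-Atp6, mt-Atp8, mt-Nd3 and mt-Nd4l held 34 counts in all Arf6-null libraries together and 17 in all wild-type libraries, with at most 4 for a gene in a library. Of the positions of 50 bases in these genes, 100% in mt-Co2, 99.9% in mt-Co3, 99.5% in mt-Atp6, 98.8% in mt-Nd4l and 98.0% in mt-Nd3 also occurred in another annotated transcript. mt-Atp8 shared none with an annotated transcript and was also nearly empty. Sequence between annotated transcripts was not searched. On chromosome 1 the annotated copies of mt-Co2 and mt-Atp6 lie 233 bases apart, as the matching stretches do on the mitochondrial chromosome. mt-Atp8 starts within that gap. How the counter treated reads that map to several places is not given in the sources used here, and the part of shared sequence in these counts was not tested. Among the 7 named transcripts the share was 0% for mt-Nd6, mt-Nd1 and mt-Cytb, 7.61% for mt-Nd5, 8.19% for mt-Nd2, 51.1% for mt-Co1 and 62.2% for mt-Nd4. The levels of mt-Co1 and mt-Nd4 are uncertain to that extent.

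**Figure D4:**
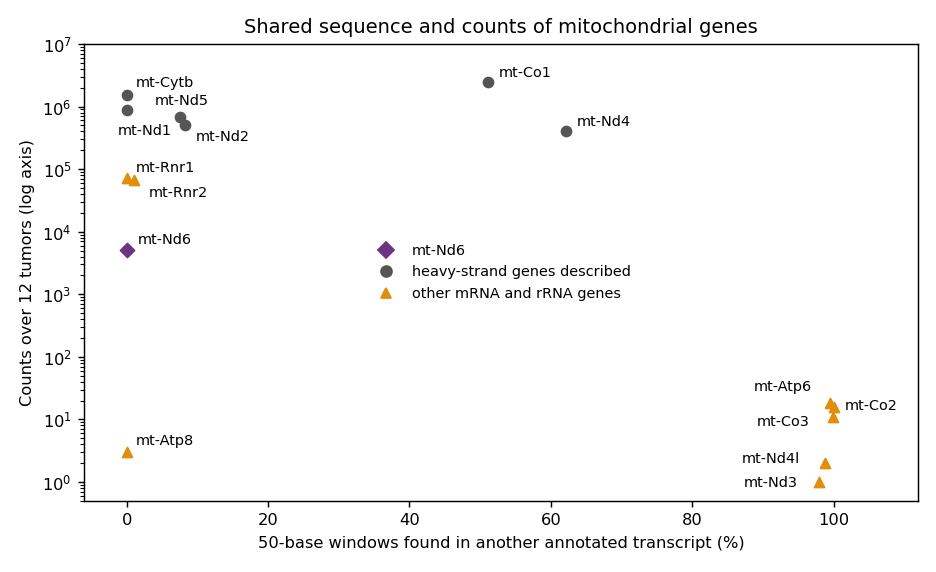
Counts over the 12 tumors (log axis) of the mitochondrial mRNA and rRNA genes against the percentage of their 50-base positions that occur in another annotated transcript. The 5 genes with 98.0% or more shared, and mt-Atp8 with none, lie far below the rest.

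Most of the shared sequence lies in a block of 7 annotated pseudogenes on the minus strand of chromosome 1 of GRCm38, from 24611535 to 24616197. mt-Co1 shares 430 windows of 50 bases with Gm29216 of this block and 411 with Gm13340 on chromosome 2. The 81 shared windows of mt-Nd2 lie in Gm13339 on chromosome 2, and those of mt-Nd5 in Gm11407 on chromosome 4 (64) and Gm4076 on chromosome 13 (73). Gm28661, Gm10925, Gm28437 and Gm10222 are identical over their whole length to mt-Co2, mt-Atp6, mt-Co3 and mt-Nd4l. Gm29216 is identical to mt-Co1 over 479 bases and Gm28439 to mt-Nd4 over 876 bases. Apart from Gm29216, the copies of the block held 0 to 97 counts per library each. Gm29216 had 840 counts in Arf6-null replicate 2, 0.296% of the mt-Co1 counts of that tumor, and 14 to 60 counts in each of the 11 other tumors.

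Because mt-Nd6 lies on the other strand, its counts depend on reads being assigned by strand. The labels name a stranded kit, and the counter's strand setting is not given in the sources used here. Of 25 genes with at least 100 reads whose exons lie wholly inside exons of 1 gene on the opposite strand, 8 had more reads than the gene around them. Snora73b had 1257 reads inside Gm17300, which had 1. With the gene models used here, such a difference requires reads assigned by strand, but the annotation release of the counter is not given. The share of reads assigned to the wrong strand was not measured. mt-Nd6 was at 0.436% to 1.30% of the counts of mt-Nd5 per tumor.

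Nuclear genes that make, process or translate mitochondrial RNA were examined in the same fit, where 1.15% of all tested genes were called and 23.4% had an unadjusted p under 0.05. Of 29 genes of mitochondrial transcription and the nucleoid, the DNA-protein body of mitochondrial DNA, none passed, 5 had an unadjusted p under 0.05, and the median log2 fold change was 0.05. The smallest p-values were those of Lonp1, the matrix protease that degrades the DNA-packaging factor TFAM, at 92.6 ± 12.1 CPM in Arf6-null tumors and 72.7 ± 6.96 CPM in wild-type tumors (edgeR adjusted p = 0.0806), and of Ppargc1b, a coactivator of mitochondrial genes, at 0.572 ± 0.245 CPM in Arf6-null tumors and 1.18 ± 0.481 CPM in wild-type tumors (edgeR adjusted p = 0.111). Of 49 genes of mitochondrial RNA processing, modification, tails and decay, none passed, 8 had an unadjusted p under 0.05, and the median log2 fold change was 0.08. Mettl17, a factor of mitochondrial ribosome assembly, was at 20.3 ± 3.37 CPM in Arf6-null tumors and 27.8 ± 3.95 CPM in wild-type tumors (edgeR adjusted p = 0.0803). Rpusd3, a pseudouridine synthase, was at 5.95 ± 1.31 CPM in Arf6-null tumors and 3.68 ± 0.693 CPM in wild-type tumors (edgeR adjusted p = 0.0812). By DESeq2, 1 of the transcription genes was called higher, and 2 of the RNA processing genes higher and 1 lower, where 12.3% of all tested genes were called.

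Of 78 mitochondrial ribosomal protein genes, 1 was called higher and none lower, which is 1.28%, and the median log2 fold change was 0.18, with 68 of 78 above 0 and 27 at an unadjusted p under 0.05. DESeq2 called 21 of them higher, where 938 of all 16225 tested genes were called higher. That gene, Mrpl17, was at 79.6 ± 6.62 CPM in Arf6-null tumors and 59.3 ± 1.59 CPM in wild-type tumors (SD, n = 6 each), a difference of 0.42 ± 0.07 on the log2 scale (SE; edgeR adjusted p = 0.0239). Mrpl17 lost its call in 6 of 12 fits that left out 1 tumor, those without Arf6-null replicates 1 or 2 or wild-type replicates 1, 3, 4 or 6, and it was called in 14 of 23 alternatives in all, with an adjusted p between 2.19e-08 and 0.124. The call was also lost with Y-linked expression or skeletal muscle content as a covariate, and without the 3 wild-type tumors richest in muscle RNA. Of 37 nuclear genes for complex I subunits, the partners of the mt-Nd products, 1 was called higher and none lower, which is 2.703%, and the median log2 fold change was 0.09. Ndufa7, an accessory subunit, was at 105.6 ± 10.5 CPM in Arf6-null tumors and 77.2 ± 7.96 CPM in wild-type tumors, a difference of 0.45 ± 0.10 on the log2 scale (SE; edgeR adjusted p = 0.0451). Ndufa7 kept its call in 4 of the 12 fits, those without wild-type replicates 2 or 5 or Arf6-null replicates 5 or 6, and in 9 of 23 alternatives in all, with an adjusted p between 0.000272 and 0.216. Of 20 complex I assembly factors none passed, 1 had an unadjusted p under 0.05 (Ndufaf7, edgeR adjusted p = 0.125), 1 was called higher by DESeq2, and the median was -0.04.

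Markers of several other cell types differed in level between the groups, skeletal muscle most widely. The 19 muscle markers summed to 9.996 to 101.8 CPM in Arf6-null tumors, and to 73.5, 40.3, 3053, 1968, 4351 and 298.8 CPM in wild-type replicates 1 to 6. All 19 log2 fold changes were below 0 and 1 was called lower, where 0.561% of all tested genes were. None of the 19 was without reads over the 12 tumors. Wild-type replicates 3, 4 and 5, with the most muscle RNA, had the lowest mt-Nd6, at 7.13 to 8.65 CPM, against 9.99 to 10.4 CPM in the 3 other wild-type tumors. Their summed heavy-strand transcripts were also lower, at 12700 to 15500 CPM, against 16130 to 19530 CPM. Without these 3 tumors the log2 fold change of mt-Nd6 was 0.84, and mt-Nd6 no longer passed the threshold. With the muscle score as a covariate it was 0.77 and did not pass either. The log2 ratio of mt-Nd6 to the heavy-strand transcripts stayed between 0.71 and 0.93 with tumors left out, thinned counts or other denominators. That ratio was not computed with a covariate. The 4 fibroblast markers summed to 5494 ± 3602 CPM in Arf6-null tumors and 11760 ± 6552 CPM in wild-type tumors (SD, n = 6 each), with 4 of 4 log2 fold changes below 0, a median of -1.30 and none called. The 3 white fat markers summed to 0.401 ± 0.508 CPM in Arf6-null tumors and 3.11 ± 2.28 CPM in wild-type tumors. The 4 Y-linked genes summed to 147.5 to 218.2 CPM in 5 Arf6-null tumors and 0.444 CPM in replicate 6, and to 202.6 and 248.0 CPM in 2 wild-type tumors (replicates 2 and 4), the other 4 being at 22.3 CPM or less. With the Y-linked score as a covariate the log2 fold change of mt-Nd6 was 0.99, and the part of the fibroblast and fat markers was not tested.

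Noncoding RNAs listed as lacking a poly(A) tail were few in these libraries, and 2 of them had enough counts to test. Rn7sk, a nuclear RNA that controls transcription elongation, was at 3.37, 2.42, 3.56, 1.85, 1.85 and 1.78 CPM in Arf6-null replicates 1 to 6 and at 1.87, 2.22, 1.11, 1.02, 1.57 and 1.18 CPM in wild-type replicates 1 to 6. Its log2 fold change of 0.72 ± 0.28 (SE) did not pass the threshold (edgeR adjusted p = 0.154), and the groups overlapped. Rpph1, the RNA of nuclear RNase P, was at 0.508 ± 0.230 CPM in Arf6-null tumors and 0.294 ± 0.0798 CPM in wild-type tumors (edgeR adjusted p = 0.170). Replication-dependent histone genes, whose mRNAs typically lack a tail, summed to 85.1 ± 20.9 CPM in Arf6-null tumors and 73.9 ± 27.0 CPM in wild-type tumors. None of the 16 tested passed, with 14 log2 fold changes above 0 and a median of 0.46. The sum rests mostly on Hist1h1c, at 28.1 CPM in Arf6-null and 32.9 CPM in wild-type tumors, and Hist1h2bc, at 22.5 and 16.7 CPM. Whether the histone mRNAs counted here carried a tail was not tested. The part of carried-over RNA without a tail, and of muscle content, in the mt-Nd6 values was not tested.

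**Figure D5:**
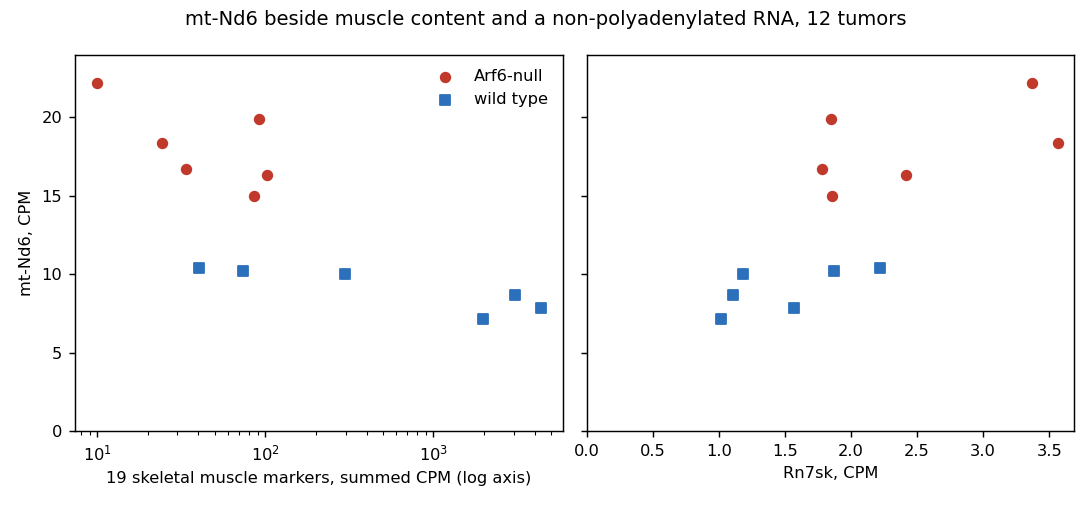
CPM of mt-Nd6 in each tumor against the summed CPM of 19 skeletal muscle markers (left, log axis) and against the CPM of the non-polyadenylated RNA Rn7sk (right), Arf6-null as circles and wild type as squares. The Arf6-null tumors lie above the wild-type tumors on the mt-Nd6 axis. Muscle markers span 9.996 to 101.8 CPM in Arf6-null and 40.25 to 4351 CPM in wild-type tumors. Rn7sk spans 1.78 to 3.56 CPM in Arf6-null and 1.02 to 2.22 CPM in wild-type tumors. Most wild-type tumors lie outside the Arf6-null range on each horizontal axis.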

How the data were processed

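RNA of 12 tumors was prepared with a Direct-zol kit and sequenced from TruSeq Stranded mRNA libraries, per the labels' protocols. The submitters' processing notes name STAR 2.7.3a, featureCounts 1.6.3, DESeq2 1.26.0 and the build GRCm38 (mm10). The deposited values are raw counts per Ensembl gene, not normalized by the authors, and 0 columns of other samples were present. The sources used here give no read length, annotation release, strand setting or multi-mapping rule.

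Symbols, coordinates and sequences came from GENCODE M21 of GRCm38, and counts without a symbol were at most 0.00186% of a library. Groups follow the genotype labels, and replicate numbers only name tumors. Genes passing filterByExpr (minimum count 10) entered edgeR 4.0.16 (quasi-likelihood F test, robust, TMM scaling, R 4.3.3), with p-values adjusted by Benjamini-Hochberg over 16225 genes at 0.05. Standard errors derive from the F statistic. The functions were tested on simulated counts. CPM use TMM-scaled library sizes. Likeness and muscle scores used log2(CPM + 1).

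The members, the gene lists and the tests were chosen with earlier results of these data known. Named genes were the 7 members, Arf6, the other mitochondrial mRNA and rRNA genes, called genes (or the 2 with the smallest p) of each nuclear list, and the 5 nuclear genes most like mt-Nd6 or the heavy-strand sum. The lists used were those of mitochondrial transcription, RNA processing, ribosomal proteins, complex I subunits and assembly factors, and of markers and RNAs without a tail. Alternatives were other scalings, DESeq2 1.42.0, limma 3.58.1 voom with quality weights, other filters, thinned counts, covariates, omitted tumors and, for the ratio, other denominators. Sampling noise bounds cover counting error only.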

Additional observations from a re-analysis of the deposited data

Results flagged for a closer look

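In 54 sets of 6 tumors, 6 held a tumor far from the other 5 by Dixon's test, and chance flags about 1 in 20 sets. Arf6-null replicate 1 had the highest log2 percentage of mt-Nd6 among the heavy-strand transcripts, -2.90, while the other 5 Arf6-null tumors had -3.53 to -3.35. Wild-type replicate 5 had the highest share of mt-Nd1 in the heavy-strand counts, 16.6%, while the other 5 wild-type tumors had 13.6% to 13.8%.

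The other 4 concern copies on chromosome 1, as log2(CPM + 1). Arf6-null replicate 2 had 4.41 for Gm29216, the copy of part of mt-Co1, while the 5 tumors beside it had 0.92 to 1.36. Wild-type replicate 5 had 0.61 for Gm29216, while the 5 tumors beside it had 1.08 to 1.25. Wild-type replicate 1 had 1.62 for Gm28661, the copy of mt-Co2, with 1.30 to 1.39 elsewhere in that genotype. Wild-type replicate 3 had 1.24 for Gm28438, the copy of mt-Nd3, with 1.46 to 1.59 elsewhere in that genotype.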

How the results depend on the processing

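The log2 fold change of mt-Nd6, 1.0, is a description of the gene chosen by it, and its calls are no test. It was above 0 under all 23 alternatives and ranged from 0.94 to 1.05 over the 12 fits that left out 1 tumor. It was 0.77 with the muscle score as a covariate and 0.84 without the 3 muscle-rich wild-type tumors, and in these fits 0 of the 7 members passed. Its log2 ratio to the heavy-strand transcripts ranged from 0.71 to 0.83 without 1 tumor and from 0.76 to 0.93 under 5 other choices, none of them a covariate. The median of the 6 heavy-strand transcripts ranged from 0.11 to 0.21 without 1 tumor and was -0.01 with the muscle covariate. mt-Nd5 was at -0.11 with that covariate.

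Counts over all genes, 95 higher and 91 lower, moved far more, and the cause was not tested. They were 938 and 1051 by DESeq2, 513 and 483 by limma-voom, 12 and 17 after adjusting for Y-linked genes, 7 and 20 with the muscle covariate, and 14 and 21 without the muscle-rich tumors. Without 1 tumor the higher count ranged from 13 to 388 and the lower from 9 to 378, so the number that pass depends on single tumors. Lower counts were 55 with no filter and 59 at 10 CPM in 6 libraries. With upper-quartile scaling the median of all genes was -0.08, and the split was 87 higher and 123 lower. Of the nuclear lists, the median of the ribosomal proteins stayed between 0.13 and 0.21 over these fits, and that of transcription genes went down to -0.01 with upper-quartile scaling.

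Depth limits mt-Nd6, with 203 reads in its lowest library, and the tRNAs. The 6 further mRNAs had too few counts to compare, and the cause was not tested. No paired analysis was possible because the labels carry no replicate numbers shared between the genotypes, although the design text calls the tumors matched.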
